A study of Mus musculus with 15 samples.

Results

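Wild type ear skin was compared between 10 and 2 weeks after birth. The comparison takes every sample titled as wild type, 3 of mice aged 10 weeks and 4 of mice aged 2 weeks, which makes 7 of the 15 samples of the series. The mice were C57BL/6 and wild type at the *Socs3* locus. The other 8 samples are of mice of the same strain that lack *Socs3* in cells expressing keratin 5 (Socs3 cKO, a deletion that starts in the basal epidermis and the outer root sheath), 4 at each age, and they are used here only to show where the change with age in the wild type differs from theirs. The labels call the source keratinocytes, whereas the RNA came from whole ear specimens: transcripts of cartilage (*Col2a1*), muscle (*Acta1*), nerve sheath (*Prx*), blood vessels (*Pecam1*) and fat cells (*Adipoq*) were read in every wild type library beside those of keratinocytes (*Krt5*). Of the 21110 genes in the files, 13447 reached 1 FPKM (fragments scaled to the length of the transcript and to the number of mapped reads) in at least 3 of the 7 samples and were tested. In whole tissue, fewer cells of a type and less RNA per cell cannot be told apart.

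The ear of a mouse at 2 weeks is still growing. Hair follicles are short organs that cycle between growth (anagen), regression (catagen) and rest (telogen). In growth, matrix cells at the base of the follicle divide and their daughters become the shaft, which is packed with hair keratins and keratin-associated proteins, and the inner root sheath around it, which is packed with its own keratins and trichohyalin; neither product is made by a resting follicle. In the dermis, fibroblasts of young animals lay down collagen and elastin that then turn over slowly, and imprinted growth genes such as *Igf2* and *H19* are known to be shut down in many organs after birth. Growing skeletal muscle exchanges embryonic and neonatal forms of its contractile proteins for adult ones.

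DEGs were genes with an adjusted p below 0.01 and an absolute log2(FC) of at least 1 in limma on log2(FPKM + 0.1), where log2(FC) is 10 weeks minus 2 weeks. There were 4439 DEGs (33.0% of the genes tested), of which 911 (6.77%) were higher and 3528 (26.2%) lower at 10 weeks, and in each of them every 10-week sample lay on one side of every 2-week sample, which was so for 17.4% of all genes tested with the 10-week samples above and for 50.7% with them below. The median log2(FC) of all genes tested was -0.45, and it depended on the scaling between samples: it was -0.08 after median-of-ratios scaling, 0.03 after quantile normalization and -0.70 with equal sums of FPKM. The split of the DEGs moved with it, from 911 higher and 3528 lower as deposited to 1610 and 2174, 1583 and 1760, and 584 and 4677, respectively. A call is therefore named scaling-stable below where it held as deposited and under each of those 3 scalings, which was so for 534 genes that rose (3.97%) and 1666 that fell (12.4%). The change also ran with gene length: the median log2(FC) was 0.25 in the group of genes with the shortest transcripts, out of 4 of nearly equal size (up to 2162 bases) and -0.80 in the group with the longest (from 5446 bases), while in Socs3 cKO mice it ran from -0.11 to 0.24. With the trend of each sample over length and GC content removed, 408 genes were higher and 3035 lower among the 12937 with an annotated length and GC content, and counts under that setting are given beside the lists that it changes most. Counts of members called below are to be read against these shares of all genes, 6.77% higher and 26.2% lower. Among the genes named here, the calls that ended under it were those of *Adipoq*, *Aif1*, *C1qa*, *Calm4*, *Cd3d*, *Cfd*, *Cidea*, *Col1a2*, *Col9a1*, *Cox7a1*, *Cytl1*, *Defb14*, *Flt4*, *Hdc*, *Hist1h4h*, *Hspa1a*, *Hspa8*, *Ifit3*, *Igf1r*, *Krtdap*, *Lce1b*, *Lce1g*, *Lce1l*, *Lce3c*, *Lss*, *Lyz1*, *Mgst1*, *Mvd*, *Nipal4*, *Nog*, *Rpl38*, *S100b*, *Timp1*, *Timp4*, *Tnnc2* and *Top2a*, and the rise of *Defb6* became a fall.

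The 10-week wild type libraries stood apart from all others in low-level signal. Of 1203 olfactory and vomeronasal receptor genes, most of which skin is not known to use, 53.6%, 35.0% and 74.2% were listed above 0 in replicates 1, 2 and 3 at 10 weeks, against 3.33% to 5.15% in the 2-week wild type and at most 7.32% in Socs3 cKO mice. Their summed FPKM was 87.3, 93.9 and 214 against 6.38 to 6.96 at 2 weeks. The read number, estimated from the smallest steps of the FPKM values, was 11400000 to 15100000 in the 7 libraries, and the correlation of log2 values across genes was 0.979 to 0.985 between replicates at 2 weeks and 0.942 to 0.958 at 10 weeks. *Xist*, which is read from the inactive X chromosome of females, was 0.0204, 30.4, 26.4 and 28.8 FPKM at 2 weeks and 13.3, 24.8 and 12.2 at 10 weeks, and the Y-linked *Eif2s3y* was 36.0 FPKM in replicate 1 at 2 weeks and 1.85 in replicate 3 at 10 weeks and near 0 in the rest, so the 2-week group held both sexes. The codes in the sample titles run in separate ranges in the groups, and the labels do not say what they number.

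**Figure D1:**
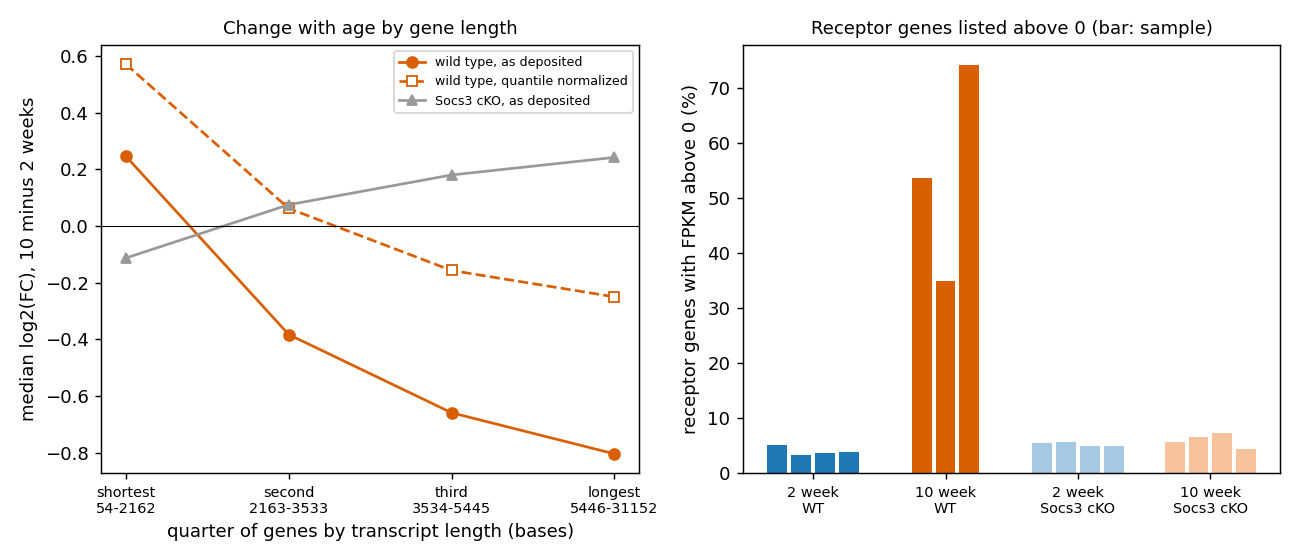
Left, median log2(FC) from 2 to 10 weeks (y axis) in 4 equal groups of genes ordered by transcript length in bases (x axis), for the wild type as deposited (filled circles), the wild type after quantile normalization (open squares) and Socs3 cKO mice (triangles); the wild type falls from 0.25 to -0.80 while Socs3 cKO mice go from -0.11 to 0.24. Right, the percentage of 1203 olfactory and vomeronasal receptor genes with FPKM above 0, 1 bar per sample; the 3 wild type bars at 10 weeks (35.0% to 74.2%) stand above all 12 others.

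The hair shaft and the inner root sheath held the largest falls in the data. The 4 promoters that follow belong to a keratin-associated protein of the shaft (*Krtap8-1*), a shaft keratin (*Krt34*) and a pair of inner root sheath keratins (*Krt71*, *Krt27*), all among the 12 largest scaling-stable falls when at most 4 genes of a family are taken. The genes of these families lie in clusters on chromosomes 11, 15 and 16 among others. The promoters are shown because most of those of these families hold TATAAA, the letters of a TATA box, at some position. Whether the motif has a part in the falls was not tested. Each is the RefSeq sequence of the gene's strand in build GRCm38.p6, 300 bases from 250 before the annotated start to 50 after it, with the motif TATAAA (searched on both strands) in capitals.
Krtap8-1 (chr16:89487903-89488202, minus strand): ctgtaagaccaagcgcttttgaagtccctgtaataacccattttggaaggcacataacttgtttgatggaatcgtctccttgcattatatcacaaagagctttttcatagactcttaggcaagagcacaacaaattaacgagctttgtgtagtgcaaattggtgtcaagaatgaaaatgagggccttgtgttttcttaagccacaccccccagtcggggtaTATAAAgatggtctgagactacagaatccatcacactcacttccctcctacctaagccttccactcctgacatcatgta
Krt34 (chr11:100041505-100041804, minus strand): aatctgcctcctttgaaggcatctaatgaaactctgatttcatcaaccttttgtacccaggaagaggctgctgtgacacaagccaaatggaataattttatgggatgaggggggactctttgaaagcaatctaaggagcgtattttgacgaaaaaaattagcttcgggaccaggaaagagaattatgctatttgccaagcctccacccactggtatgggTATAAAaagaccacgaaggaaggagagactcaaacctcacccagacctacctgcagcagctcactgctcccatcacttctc
Krt71 (chr15:101743048-101743347, minus strand): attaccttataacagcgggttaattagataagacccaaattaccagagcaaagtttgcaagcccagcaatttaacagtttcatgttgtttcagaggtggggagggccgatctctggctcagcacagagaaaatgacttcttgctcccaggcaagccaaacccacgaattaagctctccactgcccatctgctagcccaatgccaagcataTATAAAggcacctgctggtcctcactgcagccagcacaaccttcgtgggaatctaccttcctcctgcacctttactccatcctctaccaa
Krt27 (chr11:99351069-99351368, minus strand): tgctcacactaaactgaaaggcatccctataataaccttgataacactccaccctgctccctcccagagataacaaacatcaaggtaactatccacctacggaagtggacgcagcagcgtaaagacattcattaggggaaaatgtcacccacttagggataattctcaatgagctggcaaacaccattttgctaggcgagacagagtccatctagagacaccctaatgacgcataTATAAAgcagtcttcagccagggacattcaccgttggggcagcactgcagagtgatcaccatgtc
In these the motif began at position -29 in *Krtap8-1*, -31 in *Krt34*, -40 in *Krt71* and -15 in *Krt27*, counted from the annotated start. Of the 62 shaft keratin and keratin-associated protein genes in the files, 47 had a promoter in the RefSeq table, and 39 of those promoters (83.0%) held TATAAA, against 4473 of all 32851 promoters (13.6%). The share was 6 of 8 (75.0%) for the inner root sheath genes, 3 of 17 (17.6%) for the *Lce* genes of the epidermal envelope, 3 of 21 (14.3%) for the collagens and 0 of 20 for the elastic fibre genes. For developmental muscle genes it was 4 of 12 (33.3%), for contractile muscle genes 7 of 32 (21.9%). For imprinted growth genes it was 7 of 33 (21.2%). A match to these letters is a description of the window and not a mapped binding site.

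Keratin-associated proteins crosslink the keratin bundles of the shaft. *Krtap8-1* was 728, 644, 762 and 1001 FPKM at 2 weeks and 0, 0 and 0.655 at 10 weeks. All 4 values at 2 weeks were above 600 FPKM and 2 of the 3 at 10 weeks were listed at 0. Its log2(FC) was -11.95 ± 0.64 (SE) with an adjusted p of 3.28e-06. *Krtap7-1* was 463, 421, 489 and 635 FPKM at 2 weeks and 0.291, 0.849 and 0.147 at 10 weeks. *Krtap16-8* was 194, 162, 174 and 224 FPKM at 2 weeks and 0.0994, 0 and 0.205 at 10 weeks. Of the 48 keratin-associated protein genes, 46 were tested and all 46 fell, each scaling-stable, beside 12.4% of all genes; their log2(FC) ranged from -11.95 to -1.38 with a median of -6.99, against -0.45 over all genes. The summed FPKM of the family was 3722 to 5597 at 2 weeks and 45.5 to 59.5 at 10 weeks. *Krtap16-4* (174, 145, 139 and 208 FPKM, then 0, 0 and 0.594 at 10 weeks) and the keratin-associated protein-like model *Gm10229* (386, 341, 368 and 470 FPKM, then 0.172, 1.6 and 0.699 at 10 weeks) behaved in the same manner. Because a tested member had to reach 1 FPKM in 3 samples, a gene that is high at 2 weeks and off at 10 weeks passes through its 2-week values. Only a fall can be called for such a gene. A gene below 1 FPKM in every 2-week sample passes only through all 3 values at 10 weeks, and only a rise can be called for it.

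The 14 shaft keratins tested also fell, all 14 scaling-stable, with a median log2(FC) of -8.56. *Krt34*, a type I keratin of the cortex, was 81.2, 77.6, 94.8 and 135 FPKM at 2 weeks and 0.0433, 0.0253 and 0.0877 at 10 weeks. *Krt31* was 87.2, 78.9, 96.7 and 133 FPKM at 2 weeks and 0.0441, 0 and 0.223 at 10 weeks, and the type II keratin *Krt86* was 76.8, 73.2, 90.8 and 124 FPKM at 2 weeks and 0.0777, 0.0269 and 0.107 at 10 weeks. The groups were more than 2 orders of magnitude apart for each of these. The smallest fall in the list was that of *Krt32*, a keratin of the cuticle, which was 36.1, 34.1, 28.6 and 50.8 FPKM at 2 weeks and 1.7, 3.28 and 3.92 at 10 weeks. The 4 clustered type I members *Krt31*, *Krt33a*, *Krt33b* and *Krt34* share 34.6% to 41.5% of their 32-base words with other genes, and *Krt81* and *Krt86* share 50.5% and 49.7%, so reads can be divided among them and their single values are less certain than their sum, which went from 777 to 1262 FPKM at 2 weeks to 2.87 to 6.45 at 10 weeks. The keratin-like model *5430421N21Rik* was at 93.6 to 166 FPKM at 2 weeks and 0.0420 to 0.274 at 10 weeks.

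In the inner root sheath all 9 tested genes fell, scaling-stable, with a median log2(FC) of -8.50. *Krt71* was 841, 784, 730 and 1083 FPKM at 2 weeks and 0.462, 0.215 and 0.842 at 10 weeks. *Krt27* was 534, 497, 446 and 664 FPKM at 2 weeks and 0.773, 0.283 and 0.690 at 10 weeks. *Krt25* was 615, 590, 561 and 808 FPKM at 2 weeks and 1.22, 2.36 and 1.23 at 10 weeks. *Tchh*, which encodes trichohyalin, the protein that fills the cells of the sheath, was 388, 342, 264 and 438 FPKM at 2 weeks and 0.745, 1.4 and 0.765 at 10 weeks. For these 4 genes the 10-week values were 0.215 to 2.36 FPKM. The log2(FC) of *Krt71* was -10.59 ± 0.32 (SE) (adjusted p = 2.16e-07) and that of *Tchh* -8.42 ± 0.24 (SE) (adjusted p = 1.45e-07). *Krt73* fell by the same order (133, 126, 118 and 161 FPKM, then 0.0934, 0.0363 and 0.346 at 10 weeks), and the summed FPKM of the 9 genes went from 2413 to 3552 at 2 weeks to 5.42 to 8.47 at 10 weeks. *Crnn*, which encodes cornulin, an epithelial protein related to trichohyalin, was 55.7, 50.9, 44 and 71.1 FPKM at 2 weeks and 0.213, 0 and 0.0862 at 10 weeks and was the only gene of those 12 outside these hair families.

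Among 24 regulators and structural genes of the growing hair matrix, 20 fell (18 scaling-stable, 19 with the length and GC trend removed) and none rose, with a median log2(FC) of -2.74. *Hoxc13*, a homeobox factor that switches on hair keratins, was 24.6, 22.1, 22.9 and 28 FPKM at 2 weeks and 1.31, 1.3 and 1.02 at 10 weeks (log2(FC) -4.23 ± 0.15 (SE), adjusted p = 3.79e-07). *Foxn1*, the factor missing in nude mice, was 10.4, 11.3, 10.2 and 12.5 FPKM at 2 weeks and 0.897, 1.91 and 0.187 at 10 weeks. The 10-week values of *Foxn1* spread over an order of magnitude, and all stayed below the 2-week values. *Padi3*, which citrullinates trichohyalin, was 49.2, 45.4, 45.6 and 61.4 FPKM at 2 weeks and 0.0635, 0.123 and 0.214 at 10 weeks. *S100a3*, a calcium-binding protein of the cuticle, was 361, 310, 345 and 458 FPKM at 2 weeks and 24.9, 7.8 and 12.7 at 10 weeks. *Shh* (log2(FC) -3.08), the ligand that drives follicle growth, and the targets of its pathway *Ptch1* (-2.60) and *Gli1* (-2.89) fell too, as did *Lef1* (-3.58), a nuclear partner of Wnt signalling, and *Dsg4* (-5.13), a desmoglein of the shaft. The adjusted p of *Ptch1* was 0.0129 without replicate 2 at 2 weeks and 0.0216 and 0.0202 without replicates 1 and 3 at 10 weeks. The 4 that were not called were *Msx1*, *Wnt10a*, *Gata3* and *Edar*; *Msx1*, a homeobox gene, was 16.9, 18.2, 21.1 and 15.9 FPKM at 2 weeks and 12.3, 17.9 and 14.7 at 10 weeks, with overlapping groups.

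**Figure D2:**
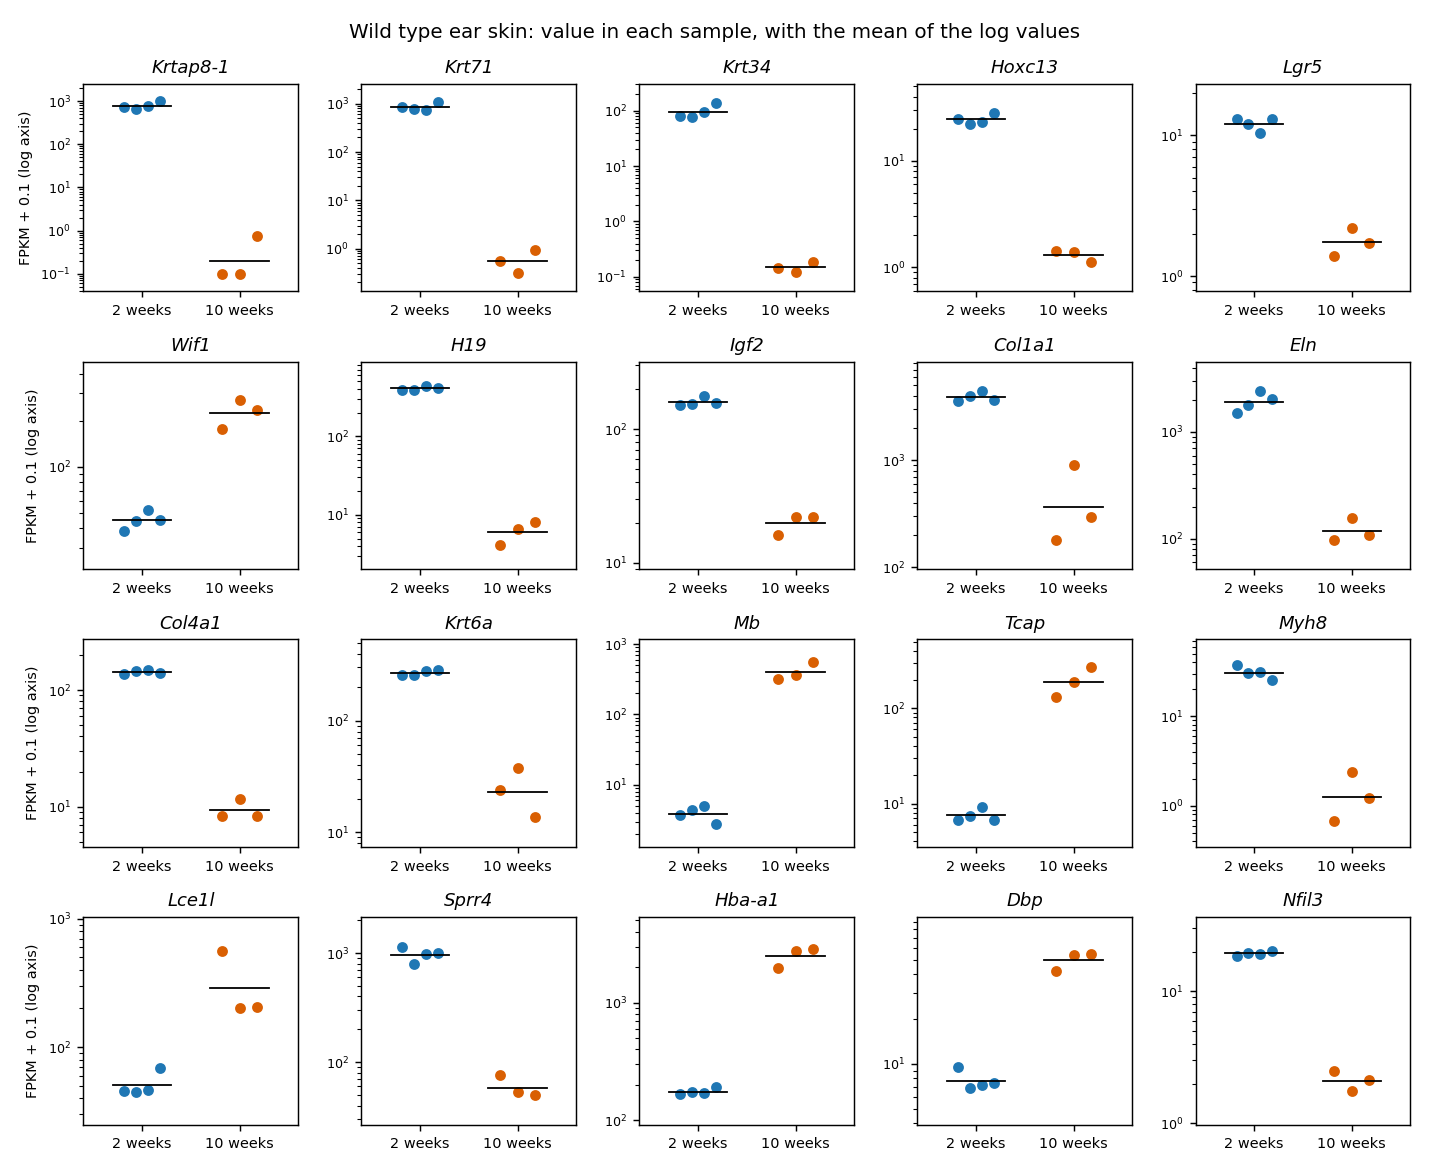
FPKM + 0.1 on a log axis of its own in each panel (y axis) for 20 genes in the 4 samples at 2 weeks (blue) and the 3 at 10 weeks (orange), 1 point per sample; the bar is the mean of the log values. The hair genes in the top row (*Krtap8-1*, *Krt71*, *Krt34*, *Hoxc13*, *Lgr5*) fell, *Wif1*, *Mb*, *Tcap*, *Lce1l*, *Hba-a1* and *Dbp* rose, and in none of the 20 panels do the groups overlap.

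Genes of the follicle outside its hair-making part changed in both directions. Of 17 bulge and hair cycle genes 10 fell (6 scaling-stable, 8 with the length and GC trend removed) and 1 rose, beside 26.2% of all genes lower. *Lgr5*, which marks cycling follicle stem cells, was 12.9, 12, 10.3 and 12.9 FPKM at 2 weeks and 1.29, 2.11 and 1.62 at 10 weeks. *Lhx2*, a factor of the bulge and germ, was 26.4, 26.6, 28.9 and 28.4 FPKM at 2 weeks and 3.67, 4.83 and 3.95 at 10 weeks. The groups were apart for both. The exception was *Wif1*, a secreted inhibitor of Wnt ligands, which was 38.4, 44.4, 52.8 and 45.4 FPKM at 2 weeks and 176, 273 and 234 at 10 weeks (log2(FC) 2.31 ± 0.17 (SE), adjusted p = 1.66e-05). *Krt15*, a keratin of the bulge and basal layer, was not called (log2(FC) -0.13), nor was *Cd34* (-0.56). Of 15 genes of the dermal papilla, the signalling centre below the matrix, 8 fell (4 scaling-stable) and 2 rose (1 scaling-stable). *Corin*, a protease of the papilla, was 1.39, 1.18, 1.42 and 1.49 FPKM at 2 weeks and 7.78, 13.5 and 6.79 at 10 weeks. *Nog*, a BMP antagonist, was 2.97, 3.23, 3.28 and 3.0 FPKM at 2 weeks and 5.51, 6.92 and 8.4 at 10 weeks; the rise of *Nog* was not scaling-stable. *Hhip*, a target and antagonist of hedgehog signalling, was 1.17, 1.09, 1.28 and 1.45 FPKM at 2 weeks and 0.0479, 0.112 and 0.0830 at 10 weeks. *Alx4*, a homeobox gene, was 1.78, 2.11, 1.96 and 1.76 FPKM at 2 weeks and 0.324, 0.211 and 0.358 at 10 weeks. *Sox18* fell by 1.91 and *Notum*, which inactivates Wnt proteins, fell by 1.71 on the log2 scale.

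Of 16 melanocyte genes 8 fell and none rose, with a median log2(FC) of -1.12; 7 of the falls were scaling-stable, and 10 genes were lower with the length and GC trend removed, *Mlana* among them. *Tyrp1*, an enzyme of eumelanin synthesis, was 47.3, 47.3, 54.2 and 40.0 FPKM at 2 weeks and 5.5, 13.4 and 7.59 at 10 weeks. *Trpm1*, a channel of pigment cells, was 10.2, 9.79, 12.3 and 9.94 FPKM at 2 weeks and 0.878, 1.33 and 1.14 at 10 weeks. *Mitf*, the master regulator of the lineage, was 8.3, 7.35, 5.9 and 6.79 FPKM at 2 weeks and 2.58, 4.06 and 2.05 at 10 weeks, a fall that was not scaling-stable, and *Kit*, the receptor that melanocytes share with mast cells, was 7.28, 6.81, 5.39 and 5.98 FPKM at 2 weeks and 3.33, 5.43 and 1.92 at 10 weeks and not called (adjusted p = 0.0242). The pigment gene *Mlana* was not called (log2(FC) -0.55).

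Imprinted genes that act in growth fell as a list: 16 of 21 were lower at 10 weeks (14 scaling-stable), none was higher, and the median log2(FC) was -2.10. *H19*, a noncoding RNA of the *Igf2* locus, was 384, 389, 440 and 405 FPKM at 2 weeks and 4.03, 6.49 and 8.03 at 10 weeks. *Igf2*, the fetal insulin-like growth factor, was 150, 155, 178 and 156 FPKM at 2 weeks and 16.1, 22 and 21.7 at 10 weeks. *Dlk1*, a membrane protein of progenitor cells, was 70.9, 63.1, 67.8 and 60.0 FPKM at 2 weeks and 2.13, 3.53 and 4.26 at 10 weeks. Every 10-week sample was below every 2-week sample for all 3 (50.7% of all genes tested), with log2(FC) of -6.06 ± 0.21 (SE), -3.01 ± 0.14 (SE) and -4.32 ± 0.21 (SE) and adjusted p of 3.79e-07, 1.44e-06 and 2.16e-06. *Rian* (76.5, 80.9, 86.1 and 82.8 FPKM, then 5.57, 8.12 and 4.72 at 10 weeks), a noncoding RNA of the *Dlk1* locus, *Peg3* (11.3, 9.29, 6.76 and 7.47 FPKM, then 0.268, 1.67 and 0.306 at 10 weeks) and the amino acid transporter gene *Slc38a4* (13, 12.3, 10.2 and 11.6 FPKM, then 0.700, 0.399 and 0.725 at 10 weeks) were among the others. The 5 not called were *Cdkn1c*, *Ndn*, *Nnat*, *Sgce* and *Impact*, of which *Ndn* and *Nnat* were called lower with the length and GC trend removed.

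Beyond these, 4 of 12 genes of the insulin-like growth factor pathway fell and none rose, a share near that of all genes (26.2% lower). *Igf1*, the postnatal ligand, was 15.7, 16.3, 16.4 and 16.1 FPKM at 2 weeks and 19.7, 19.2 and 17 at 10 weeks and did not pass the test (adjusted p = 0.107), and *Ghr*, the growth hormone receptor, was 17.8, 18.9, 15.9 and 16.7 FPKM at 2 weeks and 14.2, 24.1 and 15.1 at 10 weeks. *Igf2bp3*, an RNA-binding protein of fetal tissue, was 5.92, 5.61, 4.94 and 5.92 FPKM at 2 weeks and 0.249, 0.461 and 0.207 at 10 weeks, and *Igf2bp2* fell by 2.00 on the log2 scale. *Igfbp3*, which carries the growth factors, was 140, 155, 152 and 142 FPKM at 2 weeks and 45.9, 65.9 and 27.8 at 10 weeks. *Igf1r* was 7.43, 7.06, 5.92 and 7.04 FPKM at 2 weeks and 2.88, 4.43 and 2.56 at 10 weeks, a fall that was not scaling-stable.

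Of 39 cell cycle genes 11 fell and 1 rose, a share of falls near that of all genes (26.2%), and only *Plk1* (7.83, 9.41, 8.81 and 9.23 FPKM, then 2.61, 3.29 and 1.91 at 10 weeks), a mitotic kinase, fell scaling-stable. *Mki67*, which marks dividing cells, was 11.7, 12.5, 11 and 11.6 FPKM at 2 weeks and 9.53, 6.15 and 5.66 at 10 weeks and missed the fold threshold (log2(FC) -0.74 ± 0.18 (SE)), and *Top2a* was 17.2, 18.3, 15.1 and 17 FPKM at 2 weeks and 10.2, 8.68 and 5.39 at 10 weeks. Against its list, *Tyms*, the enzyme that makes thymidylate, was 5.81, 6.06, 6.5 and 6.13 FPKM at 2 weeks and 32.9, 34.4 and 50.8 at 10 weeks, with every 10-week value more than 5 times every 2-week value. Of 44 replication-dependent histone genes tested, 4 were higher (1 scaling-stable) and 1 lower (not scaling-stable), and 0 and 23 with the length and GC trend removed. *Hist1h1c* was 27.4, 24.3, 25.4 and 23.9 FPKM at 2 weeks and 39.4, 27.9 and 25.8 at 10 weeks and was not called, and *Hist1h4h* was 0.655, 0.728, 1.15 and 0.935 FPKM at 2 weeks and 4.36, 2.53 and 8.85 at 10 weeks. Histone transcripts of this class have no poly(A) tail and are short, and the kit selects poly(A) RNA.

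Collagen genes were lower at 10 weeks. All 6 fibrillar collagens fell, scaling-stable, with a median log2(FC) of -2.47, and 5 of 6 with the length and GC trend removed, where *Col1a2* had -0.88. *Col1a1*, a chain of the main collagen of skin, was 3544, 3932, 4435 and 3614 FPKM at 2 weeks and 180, 898 and 291 at 10 weeks. Replicate 2 at 10 weeks was the highest of its group for this gene and for all 5 others. *Col1a2*, the second chain, was 3538, 3846, 4163 and 3557 FPKM at 2 weeks and 865, 1962 and 1185 at 10 weeks. *Col3a1* was 4541, 4764, 4996 and 4393 FPKM at 2 weeks and 692, 1555 and 849 at 10 weeks. The log2(FC) was -3.42 ± 0.46 (SE) for *Col1a1*, -1.58 ± 0.27 (SE) for *Col1a2* and -2.27 ± 0.27 (SE) for *Col3a1*, with adjusted p of 0.000287, 0.000966 and 0.000155. Whether the 2 chains of this collagen differed in their fall was not tested. The summed FPKM of the 6 genes was 11960 to 14040 at 2 weeks and 1794 to 4526 at 10 weeks.

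Of 17 collagens of basement membranes, beaded filaments and other assemblies, 16 fell (14 scaling-stable) and *Col8a1* was not called (log2(FC) -0.04). *Col4a1*, the basement membrane collagen, was 136, 145, 147 and 141 FPKM at 2 weeks and 8.27, 11.6 and 8.21 at 10 weeks and its partner *Col4a2* was 107, 115, 124 and 114 FPKM at 2 weeks and 5.84, 11.5 and 7.76 at 10 weeks. *Col6a6* was 10.5, 8.09, 6.86 and 6.5 FPKM at 2 weeks and 0.159, 0.298 and 0.241 at 10 weeks. *Col15a1*, which lies next to basement membranes, was 53.9, 63.7, 70.2 and 62.4 FPKM at 2 weeks and 4.34, 9.93 and 7.38 at 10 weeks. The groups did not overlap for any of the 16. Among 22 genes of collagen processing 16 fell (10 scaling-stable, 12 with the length and GC trend removed) and none rose. *Lox*, which crosslinks collagen and elastin, was 104, 109, 108 and 105 FPKM at 2 weeks and 13.5, 33.8 and 13.9 at 10 weeks. *Leprel1*, a prolyl 3-hydroxylase, was 9.14, 10.3, 9.87 and 10.6 FPKM at 2 weeks and 0.755, 3.23 and 0.844 at 10 weeks. *Bmp1*, the enzyme that removes the procollagen tail, fell by 1.95 on the log2 scale, while the prolyl 4-hydroxylase genes *P4ha1* (-0.95) and *P4ha2* (-0.73) missed the fold threshold.

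Of 16 elastic fibre genes 13 fell (12 scaling-stable), with a median log2(FC) of -1.84. *Eln*, which encodes elastin, was 1505, 1778, 2433 and 2045 FPKM at 2 weeks and 97.3, 155 and 109 at 10 weeks (log2(FC) -4.02 ± 0.22 (SE), adjusted p = 3.35e-06). The groups did not overlap. *Fbn2*, the fibrillin of developing tissue, was 36, 34, 34 and 36.3 FPKM at 2 weeks and 2.98, 3.99 and 3.44 at 10 weeks. *Fbn1*, the fibrillin that persists in adults, was 52.1, 49.8, 48.7 and 46 FPKM at 2 weeks and 12.9, 17.4 and 10.9 at 10 weeks. The fall of *Fbn2* was -3.31 and that of *Fbn1* -1.86 on the log2 scale, with SEs of 0.12 and 0.16. *Mfap4* and *Ltbp2*, both bound to microfibrils, fell by 2.89 and 3.17. The 3 not called were *Efemp1*, *Efemp2* and *Mfap5*, of which *Efemp1* was called lower with the length and GC trend removed.

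Proteoglycans and matricellular proteins moved in both directions. Of 15 of these genes 9 fell (6 scaling-stable), 1 rose and 5 did not pass. *Fmod*, which encodes fibromodulin, a regulator of fibril assembly, was 30.7, 36.3, 40.7 and 31.8 FPKM at 2 weeks and 70.7, 123 and 96.8 at 10 weeks, the one rise. *Dcn*, which encodes decorin, was 782 to 907 FPKM at 2 weeks and 1620 ± 267 (SD, n = 3) at 10 weeks, with every 10-week sample higher and a log2(FC) of 0.94 ± 0.16 (SE) that missed the fold threshold, and *Lum*, lumican, was 304, 320, 342 and 304 FPKM at 2 weeks and 521, 486 and 462 at 10 weeks. The falls were led by *Tnn* (2.27, 2.49, 2.21 and 1.91 FPKM, then 0.195, 0.126 and 0.263 at 10 weeks), by *Tnc* (53.4, 55.7, 48.3 and 50.2 FPKM, then 9.32, 9.7 and 7.33 at 10 weeks), a tenascin of growing and healing tissue, and by *Tnxb* (35.3, 34.7, 38.5 and 35.7 FPKM, then 5.74, 10.1 and 5.55 at 10 weeks). Of 14 matrix proteases and inhibitors 3 rose (2 scaling-stable, 1 with the length and GC trend removed) and 4 fell. *Mmp3*, stromelysin, was 18.4, 26.3, 26.2 and 18.9 FPKM at 2 weeks and 100, 99.9 and 106 at 10 weeks. *Mmp11* went the other way with 30.1, 28.1, 32.3 and 30.2 FPKM at 2 weeks and 1.6, 3.77 and 2.01 at 10 weeks, and so did *Adamts4*, an aggrecanase, with 5.25, 5.47, 5.33 and 5.42 FPKM at 2 weeks and 0.437, 0.388 and 0.832 at 10 weeks. The inhibitor *Timp4* was 3.81, 5.02, 5.33 and 3.48 FPKM at 2 weeks and 11.8, 14.2 and 17.8 at 10 weeks. *Timp1* was 15, 20.2, 23.9 and 18.8 FPKM at 2 weeks and 44.5, 28.3 and 47 at 10 weeks, a rise that was not scaling-stable and turned to -0.12 with the length and GC trend removed.

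Cartilage genes, from the plate that stiffens the ear, moved in both directions. Of 23 cartilage genes 7 fell and 5 rose, and the median log2(FC) was -0.28, close to that of all genes. *Col2a1*, the main collagen of cartilage, was 120, 140, 212 and 179 FPKM at 2 weeks and 7.38, 11.7 and 5.42 at 10 weeks (log2(FC) -4.33 ± 0.28 (SE), adjusted p = 8.29e-06). Its companions *Col9a1* (41, 47.9, 61.2 and 54.5 FPKM, then 18.5, 23.6 and 22.2 at 10 weeks), *Col9a2* (46, 57.7, 76.6 and 62.8 FPKM, then 10.9, 14.6 and 17.5 at 10 weeks) and *Col11a1* (log2(FC) -1.97) fell as well. The rises were *Ucma*, a protein of cartilage cells, with 2.58, 2.96, 4.27 and 2.63 FPKM at 2 weeks and 34.3, 37.7 and 48 at 10 weeks, *Comp*, cartilage oligomeric matrix protein, with 0.900, 1.26, 1.16 and 0.934 FPKM at 2 weeks and 15.9, 24 and 11.2 at 10 weeks, *Prg4*, lubricin, with 0.226, 0.922, 1.08 and 0.650 FPKM at 2 weeks and 4.81, 3.44 and 2.55 at 10 weeks, *Cytl1* with 239, 289, 347 and 308 FPKM at 2 weeks and 1168, 744 and 1278 at 10 weeks and *Mia1* with 28.5, 45.4, 54 and 45.5 FPKM at 2 weeks and 106, 118 and 203 at 10 weeks. All 5 rises and 5 of the 7 falls were scaling-stable. With the length and GC trend removed the log2(FC) of *Cytl1* was 0.71, under the threshold, and without replicate 1 at 10 weeks the adjusted p of *Prg4* was 0.0106. *Acan*, aggrecan, was not called (log2(FC) -0.97).

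Contractile genes of skeletal muscle rose in part, and of the developmental forms 7 of 12 fell. Of 30 contractile genes tested 12 rose (10 scaling-stable and 10 with the length and GC trend removed, beside 6.77% of all genes higher), 2 fell and 16 did not pass the test. The promoter of *Myl2*, the slow and cardiac regulatory light chain and the largest rise of the list, has 2 promoters in the table, and the second is shown with the motif CAGCTG, an E-box that reads the same on both strands and is bound by myogenic factors, in capitals (RefSeq, GRCm38.p6, 250 bases before to 50 after the start).
Myl2 (chr5:122092939-122093238, plus strand): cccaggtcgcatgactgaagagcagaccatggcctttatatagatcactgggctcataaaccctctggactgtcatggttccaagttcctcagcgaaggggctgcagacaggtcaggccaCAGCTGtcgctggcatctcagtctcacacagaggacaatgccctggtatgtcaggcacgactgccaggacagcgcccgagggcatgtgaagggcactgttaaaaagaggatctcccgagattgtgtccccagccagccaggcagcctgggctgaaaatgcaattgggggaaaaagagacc
CAGCTG stood in 16 of 32 promoters of the contractile list (50.0%) and in 5355 of all 32851 (16.3%).
*Myl2* was 0.161, 0, 0 and 0 FPKM at 2 weeks and 8.06, 47 and 11.3 at 10 weeks. *Mb*, which encodes myoglobin, the oxygen store of muscle, was 3.58, 4.32, 4.91 and 2.63 FPKM at 2 weeks and 318, 366 and 559 at 10 weeks. *Tcap*, a cap protein of titin, was 6.67, 7.34, 9.15 and 6.63 FPKM at 2 weeks and 133, 188 and 274 at 10 weeks. Every 10-week sample was well above every 2-week sample for these 3 (17.4% of all genes tested), with log2(FC) of 7.01 ± 0.61 (SE), 6.70 ± 0.25 (SE) and 4.67 ± 0.23 (SE) and adjusted p of 3.58e-05, 4.49e-07 and 2.35e-06. The slow isoforms *Myl3* (0.199, 0.450, 0.507 and 0.206 FPKM, then 3.32, 6.83 and 4.34 at 10 weeks) and *Tnni1* (6.99, 6.37, 8.85 and 6.65 FPKM, then 16.8, 18.3 and 26.2 at 10 weeks) and the fast isoforms *Tnni2* (98.3, 101, 128 and 83.1 FPKM, then 361, 392 and 617 at 10 weeks) and *Tnnc2* (134, 139, 176 and 122 FPKM, then 357, 433 and 599 at 10 weeks) rose too. *Myl2* and *Myl3* were below 1 FPKM in every 2-week sample. They were tested only through their 10-week values, so only a rise could be called.

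Not all of the list moved this way. *Acta1*, skeletal actin, was 248, 280, 348 and 223 FPKM at 2 weeks and 110, 193 and 250 at 10 weeks. *Ckm*, muscle creatine kinase, was 68.8, 80.1, 101 and 61.7 FPKM at 2 weeks and 77.8, 108 and 146 at 10 weeks. *Neb*, nebulin, was 1.42, 1.41, 1.57 and 1.14 FPKM at 2 weeks and 0.562, 2.27 and 0.513 at 10 weeks. The groups overlapped for each of the 3, and *Acta1* was called lower with the length and GC trend removed. The fast myosin heavy chain *Myh4* was 22.3, 28.8, 27.9 and 21 FPKM at 2 weeks and 3.66, 11.2 and 3.2 at 10 weeks. *Actn3*, the actinin of fast fibres, was 4.84, 6.56, 5.98 and 5.37 FPKM at 2 weeks and 0.389, 1.28 and 0.347 at 10 weeks. *Myh4* and *Actn3* were the 2 falls. *Myh1* and *Myh2* were called higher (log2(FC) 1.16 and 1.59), but *Myh1*, *Myh2*, *Myh4* and *Myh8* share 29.6% to 38.8% of their 32-base words with other genes. The number of contractile genes called higher was 7 without replicate 2 at 10 weeks and 7 without replicate 3. Among 12 developmental muscle genes 7 fell (4 scaling-stable, 5 with the length and GC trend removed) and none rose, whereas 2 were called higher after quantile normalization. *Myh8*, the perinatal myosin, was 36.9, 30.0, 31.1 and 25.3 FPKM at 2 weeks and 0.576, 2.29 and 1.13 at 10 weeks. *Actc1*, the actin of fetal muscle and heart, was 16.9, 17.8, 21.3 and 17.7 FPKM at 2 weeks and 1.48, 1.37 and 2.16 at 10 weeks. *Myod1*, the myogenic factor, was 1.84, 2.55, 3.09 and 2.25 FPKM at 2 weeks and 0.110, 0.429 and 0.447 at 10 weeks. *Myh3*, the embryonic myosin, was 9.45, 8.62, 9.41 and 6.67 FPKM at 2 weeks and 1.83, 10.2 and 4.34 at 10 weeks, with the groups overlapping through replicate 2 at 10 weeks.

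Fat genes changed in few members and sebaceous genes in both directions. Of 22 adipocyte genes 5 rose (4 scaling-stable) and none fell, against 6.77% of all genes called higher; with the length and GC trend removed *Retn* was the 1 rise and *Fabp4* a fall, at -1.27. *Adipoq*, adiponectin, was 6.44, 7.89, 6.57 and 7.1 FPKM at 2 weeks and 15.9, 24 and 22.1 at 10 weeks. *Retn*, resistin, was 1.88, 1.19, 2.11 and 0.859 FPKM at 2 weeks and 4.31, 9.73 and 13.7 at 10 weeks. *Cfd*, adipsin, was 8.63, 8.03, 8.57 and 8.26 FPKM at 2 weeks and 27.3, 19.4 and 19.6 at 10 weeks. All 10-week values were above all 2-week values for the 3. *Fabp4*, the fatty acid carrier of fat cells, was 202, 220, 226 and 238 FPKM at 2 weeks and 278, 303 and 382 at 10 weeks and missed the fold threshold, and *Plin1*, perilipin, was 2.62, 2.69, 3.05 and 2.25 FPKM at 2 weeks and 1.83, 5.77 and 4.0 at 10 weeks, with overlapping groups. Of 15 sebaceous gland genes 4 rose and 6 fell, of which 2 and 4 were scaling-stable, and 1 and 7 did with the length and GC trend removed. *Scd1*, the stearoyl-CoA desaturase that is most used in the gland, was 271, 294, 270 and 262 FPKM at 2 weeks and 867, 1081 and 880 at 10 weeks, whereas its relative *Scd3* was 20.5, 22, 20.9 and 20.8 FPKM at 2 weeks and 2.88, 5.09 and 1.89 at 10 weeks (log2(FC) 1.77 ± 0.13 (SE) and -2.75 ± 0.28 (SE)). *Mgst1*, a glutathione transferase, rose (90.0, 85.3, 104 and 90.3 FPKM, then 314, 308 and 256 at 10 weeks), and *Fads2* (9.78, 12.9, 13.8 and 12.2 FPKM, then 0.838, 5.1 and 1.08 at 10 weeks), *Far2* (34.2, 38.6, 35.5 and 37.6 FPKM, then 9.93, 18.2 and 6.81 at 10 weeks), which makes the fatty alcohols of wax, and *Mc5r* (4.82, 5.62, 3.37 and 4.55 FPKM, then 0.887, 1.99 and 1.03 at 10 weeks), the melanocortin receptor of the gland, fell. *Cidea* and *Defb6* were called higher as deposited (log2(FC) 1.05 and 1.15) and not scaling-stable, and with the length and GC trend removed *Defb6* turned to -1.09.

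The late cornified envelope genes of the *Lce* cluster, which are made in the uppermost living epidermis, were higher as deposited. Of 16 *Lce* genes tested 14 rose (13 scaling-stable) and none fell, with a median log2(FC) of 1.63. *Lce1l* was 45.2, 44.9, 45.9 and 68.3 FPKM at 2 weeks and 565, 203 and 206 at 10 weeks. *Lce1g* was 35.8 to 55.5 FPKM at 2 weeks and 247 ± 201 (SD, n = 3) at 10 weeks. *Lce1b* was 161, 141, 148 and 188 FPKM at 2 weeks and 928, 297 and 354 at 10 weeks. Replicate 1 at 10 weeks was the highest sample for each, 2 to 4 times the other two. With the length and GC trend removed 0 of the 15 with an annotated length was called and the median was 0.45, and the count as deposited was 5 when replicate 1, 2 or 3 at 2 weeks was left out. The members of the *Lce1* family share sequence with each other, so reads can be divided among them. The other *Lce3* and *Lce6* members had 2.05, 2.96, 1.93 and 3.71 FPKM at 2 weeks and 70.1, 7.04 and 10.2 at 10 weeks for *Lce3c*, which was called, and log2(FC) of 2.55 for *Lce3f* and 0.40 for *Lce6a*, which were not.

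Among 19 other genes of the cornified envelope and its precursors 3 rose (none scaling-stable) and 7 fell (3 scaling-stable), and with the length and GC trend removed 1 and 8 did. *Lor*, loricrin, the most abundant envelope protein, was 710, 618, 562 and 759 FPKM at 2 weeks and 1741, 960 and 961 at 10 weeks. *Flg2* was 58.8, 52.2, 37.4 and 63 FPKM at 2 weeks and 87.8, 77 and 31.9 at 10 weeks. Neither *Lor* nor *Flg2* passed the test. *Krtdap*, *Dmkn* and *Calm4*, all of the upper epidermis, were called higher (log2(FC) 1.35, 1.32 and 1.41), none scaling-stable, again with replicate 1 the highest; with the length and GC trend removed *Krtdap* turned to -0.42. *Casp14*, the protease that processes filaggrin, was 37.7, 32.9, 30.3 and 45.1 FPKM at 2 weeks and 19.1, 7.68 and 4.59 at 10 weeks. *Tgm3*, a transglutaminase of the epidermis and hair, was 21.8, 23.2, 24.6 and 27.5 FPKM at 2 weeks and 8.23, 12.5 and 5.46 at 10 weeks. Among 8 small proline-rich proteins tested, with 6 others below the filter, *Sprr4* was 1136, 796, 972 and 998 FPKM at 2 weeks and 75.9, 52.8 and 49.9 at 10 weeks. *Sprr1a* was 784 ± 78.2 FPKM (SD, n = 4) at 2 weeks and 74.8 to 172 at 10 weeks. Both falls were scaling-stable. *Sprr2i* was 0, 0.189, 0 and 0.0578 FPKM at 2 weeks and 4.75, 1.89 and 1.64 at 10 weeks, the 1 rise. It was below 1 FPKM in every 2-week sample, so only a rise could be called. *Sprr1b* was 3.25, 2.67, 2.54 and 4.18 FPKM at 2 weeks and 85.4, 3.79 and 0.498 at 10 weeks. *Sprr2a2* was 7.76, 8.2, 9.18 and 13.1 FPKM at 2 weeks and 7.04, 4.79 and 1.35 at 10 weeks. The groups overlapped for *Sprr1b* and *Sprr2a2*, and *Sprr2a2* was called lower with the length and GC trend removed.

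Of 8 keratins of the interfollicular epidermis 3 fell and none rose. *Krt5* and *Krt14*, the pair of the basal layer, did not pass the fold threshold (log2(FC) -0.60 and 0.36), nor did *Krt10* (-0.07). *Krt1*, the partner of *Krt10* above the basal layer, was 900, 723, 778 and 1005 FPKM at 2 weeks and 172, 59.9 and 50.5 at 10 weeks. *Krt77* was 124, 112, 100 and 125 FPKM at 2 weeks and 8.49, 20.4 and 7.54 at 10 weeks. *Krt80* was 207, 198, 192 and 231 FPKM at 2 weeks and 5.84, 42.9 and 5.24 at 10 weeks, with replicate 2 highest of the 10-week group. *Krt2*, the keratin of the upper layers of ear skin, was 1222, 1385, 1303 and 1400 FPKM at 2 weeks and 3952, 2672 and 1764 at 10 weeks, with every 10-week value higher and a log2(FC) just under the threshold of 1 (SE 0.26), and was not called. All 4 keratins of the outer root sheath, companion layer and stressed epidermis fell: *Krt6a* was 257, 258, 278 and 287 FPKM at 2 weeks and 23.7, 37.7 and 13.7 at 10 weeks. *Krt6b* was 71.8, 72.3, 76.2 and 78.3 FPKM at 2 weeks and 4.42, 7.13 and 2.64 at 10 weeks. *Krt17* was 921, 850, 925 and 944 FPKM at 2 weeks and 227, 148 and 176 at 10 weeks. *Krt16* was 186, 184, 187 and 198 FPKM at 2 weeks and 139, 85.1 and 44.8 at 10 weeks, a fall that was not scaling-stable. Of 19 barrier lipid genes 2 fell and none rose; the lipoxygenase genes *Alox12b* (-0.50) and *Aloxe3* (-0.30) and the lipid transporter gene *Abca12* (-1.27) were not called, and the 2 falls, *Aldh3a2* and *Nipal4*, were not scaling-stable. Of 16 cholesterol synthesis genes 1 rose (*Mvd*, 1.04) and 1 fell (*Lss*, -1.03), neither scaling-stable.

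Most immune cell markers tested were not called as deposited. Of 15 macrophage genes 4 rose (2 scaling-stable), beside 6.77% of all genes higher, and none fell. None was called with the length and GC trend removed. *Cd68* was 22.4, 23.9, 22.8 and 24.7 FPKM at 2 weeks and 32.9, 25.2 and 18.2 at 10 weeks. *Csf1r*, the receptor that macrophages depend on, was 26.8, 28.6, 24.9 and 29.7 FPKM at 2 weeks and 23.6, 21.6 and 21.1 at 10 weeks. Neither *Cd68* nor *Csf1r* was called. *Lyz1*, a lysozyme, was 18.1, 20.7, 24.7 and 21.4 FPKM at 2 weeks and 116, 58.7 and 70.6 at 10 weeks. *Aif1* was 4.62, 3.95, 6.12 and 7.25 FPKM at 2 weeks and 18.3, 8.12 and 21.1 at 10 weeks. *C1qa* was 48.4, 47.9, 60.0 and 56.2 FPKM at 2 weeks and 165, 72.5 and 130 at 10 weeks, a rise that was not scaling-stable. The calls of *Aif1* and *C1qa* were lost without replicate 1 or 2 at 2 weeks or replicate 1 or 3 at 10 weeks, and that of *Aif1* also without replicate 3 at 2 weeks, with adjusted p of up to 0.0267 and 0.0187. Of 11 antigen presentation and Langerhans cell genes 2 fell: *Ciita*, the switch of MHC class II genes, was 2.31, 2.45, 1.98 and 2.05 FPKM at 2 weeks and 0.270, 0.658 and 0.434 at 10 weeks, while the class II gene *H2-Ab1* itself was 136, 142, 151 and 136 FPKM at 2 weeks and 191, 168 and 192 at 10 weeks. *H2-Aa* was 149, 170, 185 and 178 FPKM at 2 weeks and 321, 226 and 263 at 10 weeks. Both class II genes had every 10-week value above every 2-week value, and neither was called. Of 12 T cell genes *Cd3d* rose (2.09, 1.8, 2.24 and 1.27 FPKM, then 6.93, 5.16 and 6.03 at 10 weeks) and *Il2rb* fell (3.68, 3.35, 2.54 and 2.58 FPKM, then 0.681, 1.33 and 0.788 at 10 weeks), and *Cd3e* was 4.98, 4.75, 3.48 and 3.25 FPKM at 2 weeks and 4.43, 7.81 and 4.88 at 10 weeks. A further 8 T cell genes in the files did not reach the filter. After quantile normalization 6 of the 12 tested were called higher, beside 11.8% of all genes, and 1 lower. Of the B cell list only *Cd79b* was expressed enough to be tested (0.555, 1.02, 1.06 and 0.936 FPKM, then 2.26, 1.14 and 1.05 at 10 weeks) and was not called.

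Of 10 mast cell genes the proteases *Cpa3* (105, 108, 105 and 101 FPKM, then 85.8, 98.9 and 71.1 at 10 weeks), *Mcpt4* (191, 179, 174 and 182 FPKM, then 197, 177 and 245 at 10 weeks) and *Cma1* (141, 135, 132 and 137 FPKM, then 143, 128 and 175 at 10 weeks) did not pass the test, although *Cpa3* and *Mcpt4* were called lower with the length and GC trend removed (log2(FC) -1.50 and -1.02), while *Fcer1a*, the alpha chain of the IgE receptor, was 0.0839, 0.0949, 0.0714 and 0.174 FPKM at 2 weeks and 5.98, 1.98 and 1.94 at 10 weeks. *Ms4a2*, the beta chain of the same receptor, was 2.31, 2.42, 1.75 and 2.66 FPKM at 2 weeks and 0.828, 1.32 and 0.305 at 10 weeks. *Hdc*, which makes histamine, was 10.9, 8.04, 9.39 and 8.85 FPKM at 2 weeks and 3.13, 4.72 and 3.22 at 10 weeks. *Ms4a2* and *Hdc* were called lower, not scaling-stable. *Fcer1a*, below 1 FPKM in every 2-week sample, could only be called higher. Of 4 neutrophil genes *Cxcr2* (0.925, 1.21, 0.995 and 1.02 FPKM, then 4.8, 5.74 and 6.55 at 10 weeks) and *Csf3r* (0.404, 0.868, 0.551 and 0.798 FPKM, then 1.54, 1.56 and 1.91 at 10 weeks) rose, and *S100a8* was 5.87, 10.4, 5.93 and 4.57 FPKM at 2 weeks and 11.9, 31.6 and 5.88 at 10 weeks. The rise of *Csf3r* was not scaling-stable. The other 7 neutrophil genes in the files did not reach the filter and were not tested. Among 11 antimicrobial genes 5 rose (2 with the length and GC trend removed). *Defb14*, a beta-defensin, was 1.08, 1.22, 1.84 and 0 FPKM at 2 weeks and 51.4, 20.5 and 13 at 10 weeks. *Slpi*, a protease inhibitor of secretions, was 1.33, 1.74, 1.66 and 2.02 FPKM at 2 weeks and 20.6, 5.05 and 13.1 at 10 weeks. *Lcn2*, which binds bacterial iron carriers, was 1.59, 1.32, 1.9 and 2.54 FPKM at 2 weeks and 4.58, 6.11 and 5.3 at 10 weeks. Without replicate 1 at 10 weeks the adjusted p of *Defb14* was 0.0114. Of 18 interferon-stimulated genes 3 rose (2 scaling-stable) and 1 fell (not scaling-stable), and with the length and GC trend removed 1 and 2 did. *Ifit3*, which rose, was 1.7, 2.0, 2.17 and 3.0 FPKM at 2 weeks and 5.83, 6.92 and 5.63 at 10 weeks.

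Of 5 erythroid genes tested, with 5 others below the filter, 4 rose and 1 fell, all scaling-stable. *Hba-a1* and *Hba-a2*, which share 71.1% and 90.8% of their words and cannot be told apart in short reads, were 168, 172, 169 and 193 FPKM at 2 weeks and 1958, 2730 and 2885 at 10 weeks and 158, 164, 159 and 183 FPKM at 2 weeks and 1870, 2615 and 2735 at 10 weeks. *Hbb-b1* was 127, 139, 131 and 151 FPKM at 2 weeks and 846, 1556 and 1096 at 10 weeks. *Alas2*, the heme enzyme of red cell precursors, was 3.92, 3.61, 2.94 and 3.97 FPKM at 2 weeks and 7.79, 14.9 and 11.2 at 10 weeks. The fifth gene tested, *Slc4a1*, the anion exchanger of the red cell membrane, was 2.95, 3.43, 3.04 and 3.62 FPKM at 2 weeks and 0.140, 0.114 and 0.325 at 10 weeks and fell. The log2(FC) was 3.83 ± 0.16 (SE) for *Hba-a1* (adjusted p = 9.83e-07) and -3.58 ± 0.27 (SE) for *Slc4a1* (adjusted p = 1.72e-05), both scaling-stable.

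Genes of nerve sheath and blood vessels fell in most members as deposited, but not under every scaling. Of 14 Schwann cell genes 10 fell (5 scaling-stable, 5 after quantile normalization, 8 with the length and GC trend removed) and 1 rose, beside 26.2% of all genes lower. *Prx*, periaxin, a protein of the myelin sheath, was 17.8, 18.4, 17.9 and 17.6 FPKM at 2 weeks and 2.41, 5.96 and 3.33 at 10 weeks. *Pmp22* was 185, 190, 209 and 185 FPKM at 2 weeks and 133, 154 and 133 at 10 weeks and did not pass the fold threshold. *S100b*, which cartilage cells and fat cells also express, was 14.6, 15.2, 21 and 17.9 FPKM at 2 weeks and 58.8, 57.3 and 70.3 at 10 weeks and rose. Of 17 endothelial genes 13 fell and none rose; 6 of the falls were scaling-stable, 6 held after quantile normalization, where 2 genes rose, and 10 genes were lower with the length and GC trend removed. *Cdh5*, the cadherin of endothelial junctions, was 17.6, 18.9, 19.6 and 19.5 FPKM at 2 weeks and 2.21, 3.37 and 2.22 at 10 weeks. *Kdr*, a receptor for VEGF, was 5.72, 5.44, 4.21 and 4.51 FPKM at 2 weeks and 0.589, 1.19 and 0.514 at 10 weeks. *Pecam1* was 24.7, 30.5, 27.2 and 29.9 FPKM at 2 weeks and 9.76, 7.8 and 6.58 at 10 weeks. *Emcn*, *Cldn5*, *Esam* and *Egfl7* were not called, with log2(FC) of 0.42, 0.81, -0.91 and -0.14. Of 3 lymphatic genes *Lyve1* (-1.25) and *Flt4* (-1.34) fell and *Pdpn* (-0.22) did not pass; neither fall was scaling-stable.

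**Figure D3:**
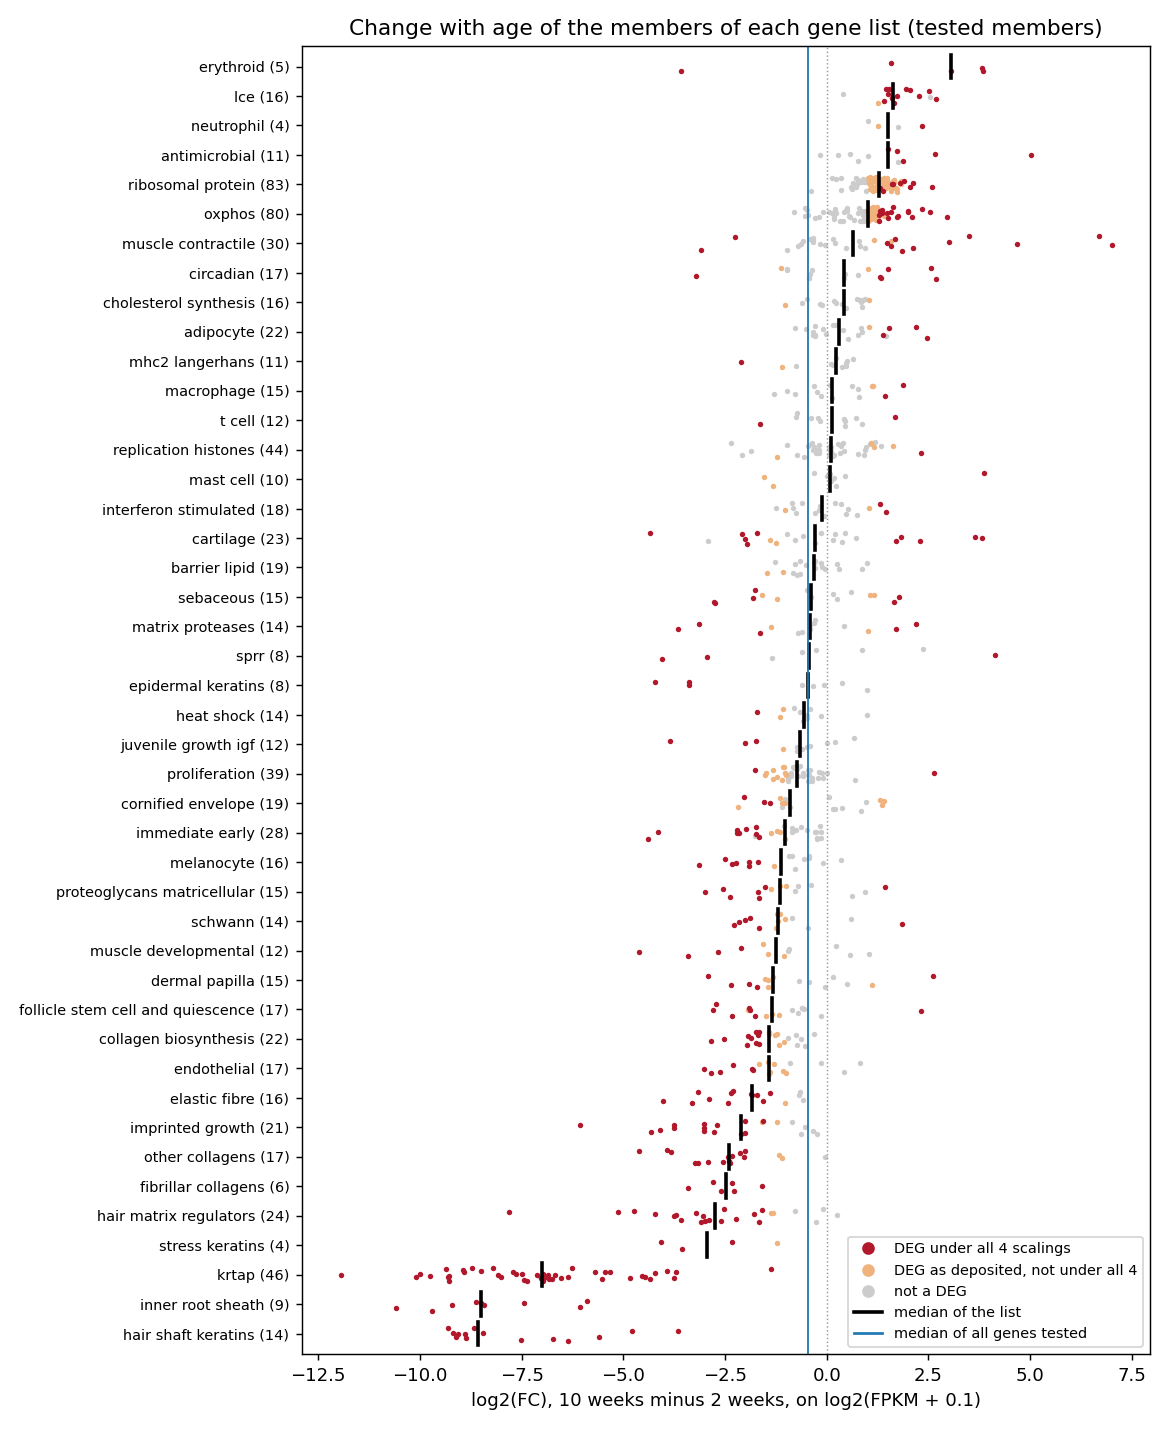
log2(FC) from 2 to 10 weeks (x axis) of the tested members of each gene list with at least 4 tested members (y axis, number tested in brackets), 1 point per gene, ordered by the median (black bar); red points are DEGs as deposited and under the 3 other scalings, orange points are DEGs as deposited but not under all 3, grey points are not DEGs, and the blue line is the median of all genes (-0.45). The 3 hair lists at the bottom have medians of -8.56, -8.50 and -6.99, and the erythroid and *Lce* lists at the top 3.05 and 1.63.

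Rapidly induced and clock-controlled genes differed between the ages. Of 28 immediate-early genes 13 fell (9 scaling-stable, beside 26.2% and 12.4% of all genes) and none rose; with the length and GC trend removed 16 fell. *Dusp2*, a phosphatase of MAP kinases, was 15, 14.2, 12.6 and 15.1 FPKM at 2 weeks and 0.901, 0.601 and 0.347 at 10 weeks. *Egr3* was 28.7, 24.9, 22.2 and 27.1 FPKM at 2 weeks and 1.15, 4.03 and 0.507 at 10 weeks. *Nr4a1* was 19, 16.8, 14.1 and 16.4 FPKM at 2 weeks and 4.54, 3.74 and 2.49 at 10 weeks. *Fos* itself was 13.4, 15.6, 11.9 and 15.6 FPKM at 2 weeks and 7.74, 7.34 and 1.14 at 10 weeks and did not pass the test (adjusted p = 0.0237), with replicate 3 at 10 weeks far below the other two. Of 17 circadian genes 6 rose (5 scaling-stable) and 2 fell (1 scaling-stable). *Dbp* was 9.38, 6.81, 7.14 and 7.39 FPKM at 2 weeks and 41.7, 53.8 and 54.2 at 10 weeks. *Gm129*, a repressor of the clock, was 2.14, 2.29, 1.63 and 2.46 FPKM at 2 weeks and 13, 13.9 and 11.7 at 10 weeks; *Nr1d1*, *Nr1d2*, *Hlf* and *Per3* rose, with log2(FC) of 1.5, 1.31, 1.34 and 1.01. *Nfil3*, which acts on the same sites as *Dbp* in the opposite sense, was 18.6, 19.4, 19.1 and 20.1 FPKM at 2 weeks and 2.38, 1.66 and 2.03 at 10 weeks. *Cry1* was 9.69, 9.63, 9.35 and 10.2 FPKM at 2 weeks and 5.37, 4.13 and 3.87 at 10 weeks. The activators *Arntl* (8.66, 10.3, 9.74 and 9.7 FPKM, then 8.11, 9.36 and 4.73 at 10 weeks) and *Clock* (3.35, 3.69, 3.36 and 3.1 FPKM, then 5.07, 5.67 and 3.35 at 10 weeks) had overlapping groups. The labels give no time of day. Of 14 heat shock genes *Hsph1* (8.85, 12.3, 10.7 and 11.1 FPKM, then 3.37, 3.63 and 2.59 at 10 weeks), *Hspa1a* and *Hspa8* fell, the first scaling-stable.

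Genes of the ribosome and of mitochondrial respiration were higher as deposited, and most of these calls depended on the scaling. Of 83 ribosomal protein genes 64 rose, 9 of them scaling-stable, with a median log2(FC) of 1.29 as deposited, 0.57 after quantile normalization and 0.39 with the length and GC trend removed, where 20 were called. *Rpl13a* was 923, 762, 914 and 685 FPKM at 2 weeks and 4269, 2437 and 4265 at 10 weeks. *Rpl38* was 1318, 1503, 1498 and 1476 FPKM at 2 weeks and 6967, 3984 and 7817 at 10 weeks, with replicate 2 the lowest of the 10-week group for both. *Rpl3l*, a form particular to muscle, was 1.12, 1.74, 2.31 and 0.863 FPKM at 2 weeks and 7.18, 8.7 and 11.4 at 10 weeks. Of 80 oxidative phosphorylation genes 43 rose, 18 scaling-stable and 7 with the length and GC trend removed. The largest rises in the list were *Cox8b* (14.7, 14.2, 11.8 and 10.8 FPKM, then 88.3, 77.7 and 148 at 10 weeks), *Cox6a2* (9.31, 17.5, 16.1 and 10.8 FPKM, then 55.9, 74.3 and 106 at 10 weeks) and *Cox7a1* (10.6, 17.3, 17 and 11 FPKM, then 52, 69.8 and 93.5 at 10 weeks), which encode the muscle forms of cytochrome oxidase subunits. *Atp5a1*, a subunit used in all cells, was 241, 253, 261 and 247 FPKM at 2 weeks and 144, 185 and 113 at 10 weeks and did not reach the fold threshold.

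The 12 largest scaling-stable rises held genes outside these lists. *Myoc*, myocilin, a secreted protein of connective tissue and the eye, was 13.2, 15.7, 14.8 and 12.9 FPKM at 2 weeks and 312, 605 and 535 at 10 weeks (log2(FC) 5.04 ± 0.22 (SE), adjusted p = 1.04e-06). *Krt24*, an epithelial keratin, was 1.39, 1.58, 1.62 and 1.45 FPKM at 2 weeks and 73.6, 35.1 and 17.2 at 10 weeks. *Akr1c18*, which inactivates progesterone, was 0.855, 0.484, 1.21 and 1.55 FPKM at 2 weeks and 127, 36 and 5.96 at 10 weeks. The groups were apart for all of these, although the 10-week values of *Akr1c18* spread from 5.96 to 127. *Aqp2*, a water channel best known from the kidney, was 0.0569, 0, 0.242 and 0.118 FPKM at 2 weeks and 8.86, 12.1 and 21.8 at 10 weeks. *4930470H14Rik* was 0.322, 0.255, 0.430 and 0.263 FPKM at 2 weeks and 63.4, 56 and 141 at 10 weeks. *F830016B08Rik* was 0.102, 0.0853, 0.0625 and 0.0666 FPKM at 2 weeks and 5.17, 5.58 and 11.3 at 10 weeks and the RNase P RNA *Rpph1* was 1.12, 0, 0.478 and 1.17 FPKM at 2 weeks and 33.6, 5.19 and 15.5 at 10 weeks. The pseudogene *Speer8-ps1* was listed at or near 0 in the 4 samples at 2 weeks and at 4.52 to 7.58 FPKM at 10 weeks. In the same 3 libraries the receptor genes above were listed above 0 in 35.0% to 74.2% of cases, and whether the low-level signal contributes to these rises was not tested. Without replicate 1 at 10 weeks the adjusted p of *Rpph1* was 0.0127, and without replicate 3 it was 0.0115. *Aqp2*, *4930470H14Rik*, *F830016B08Rik* and *Speer8-ps1* were below 1 FPKM in every 2-week sample, so only a rise could be called.

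The change with age differed between the wild type and Socs3 cKO samples. The 10-week wild type libraries stood apart in low-level signal, and the title codes run in separate ranges in the groups. Genotype and the set of libraries therefore cannot be told apart in this difference. *Socs3*, a feedback inhibitor of cytokine signalling on chromosome 11 (mm9, 117827393 to 117831361), was itself 9.71, 10.2, 10.3 and 10.3 FPKM at 2 weeks and 2.76, 4.81 and 2.02 at 10 weeks in the wild type (log2(FC) -1.73 ± 0.25 (SE), adjusted p = 0.00044); in a fit that shares its spread over all 4 groups the adjusted p was 0.0192, above the threshold. In Socs3 cKO mice its log2(FC) with age was 2.88, and the difference between the genotypes was -4.60 ± 0.76 (SE) (adjusted p of the interaction 0.000591). Across all genes tested 3563 (26.5%) had an interaction of genotype and age at an adjusted p below 0.01, and 2546 (18.9%) had it under each of 3 scalings (as deposited, median-of-ratios and quantile).

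The hair genes were far over that share. Of the shaft keratins 13 of 14, of the keratin-associated proteins 39 of 46 and of the inner root sheath genes 9 of 9 had an interaction under the 3 scalings, and the median log2(FC) with age was -0.79, -1.29 and -1.17 in Socs3 cKO mice against -8.56, -6.99 and -8.50 in the wild type. *Krt71* fell by 10.59 on the log2 scale in the wild type and had a log2(FC) of -1.70 in Socs3 cKO mice (adjusted p of the interaction 0.000901). The SE of the difference between the genotypes was 1.58 for *Krt71* and 1.88 for *Krtap8-1*. The SE of the wild type change was 0.32 and 0.64. The paper reports keratin-associated genes as reduced in the younger knockout mice. Levels in Socs3 cKO mice are not given here, and whether their smaller falls began from lower levels was not tested. For the fibrillar collagens 5 of 6 differed, with a median of 0.14 in Socs3 cKO mice against -2.47, and *Col1a1* had 0.34 against -3.42 (adjusted p of the interaction 0.000478). Of the contractile muscle genes 18 of 30 differed, with a median of -1.63 in Socs3 cKO mice against 0.64: *Tcap* had -0.26 against 4.67 and *Mb* 1.67 against 6.70.

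The medians of the *Lce*, erythroid and immediate-early lists had opposite signs in the genotypes. Those of the other cornified envelope genes did not, at -0.705 in Socs3 cKO mice and -0.90 in the wild type. The *Lce* genes had a median of -1.07 in Socs3 cKO mice against 1.63 in the wild type, with an interaction in 13 of 16. The 5 erythroid genes had an interaction in each, with *Hba-a1* at -1.76 against 3.83 and *Slc4a1* at -1.23 against -3.58. Of the 28 immediate-early genes 19 differed, and the median was 2.04 in Socs3 cKO mice against -1.04 in the wild type: *Nr4a1* had 4.71 against -2.21 and *Egr3* 1.70 against -4.13. Imprinted growth genes differed in 9 of 21, with medians of -0.16 and -2.10; *H19* fell in the wild type by 6.06 and had a log2(FC) of -3.08 in Socs3 cKO mice without an interaction under the 3 scalings, while *Dlk1* had -0.10 (adjusted p of the interaction 0.000449). Under the 3 scalings the melanocyte list had an interaction in 0 of 16, and the developmental muscle list in 3 of 12, with *Myh8* at -3.24 against -4.61. As deposited, 4 genes had an interaction in each of these lists.

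**Figure D4:**
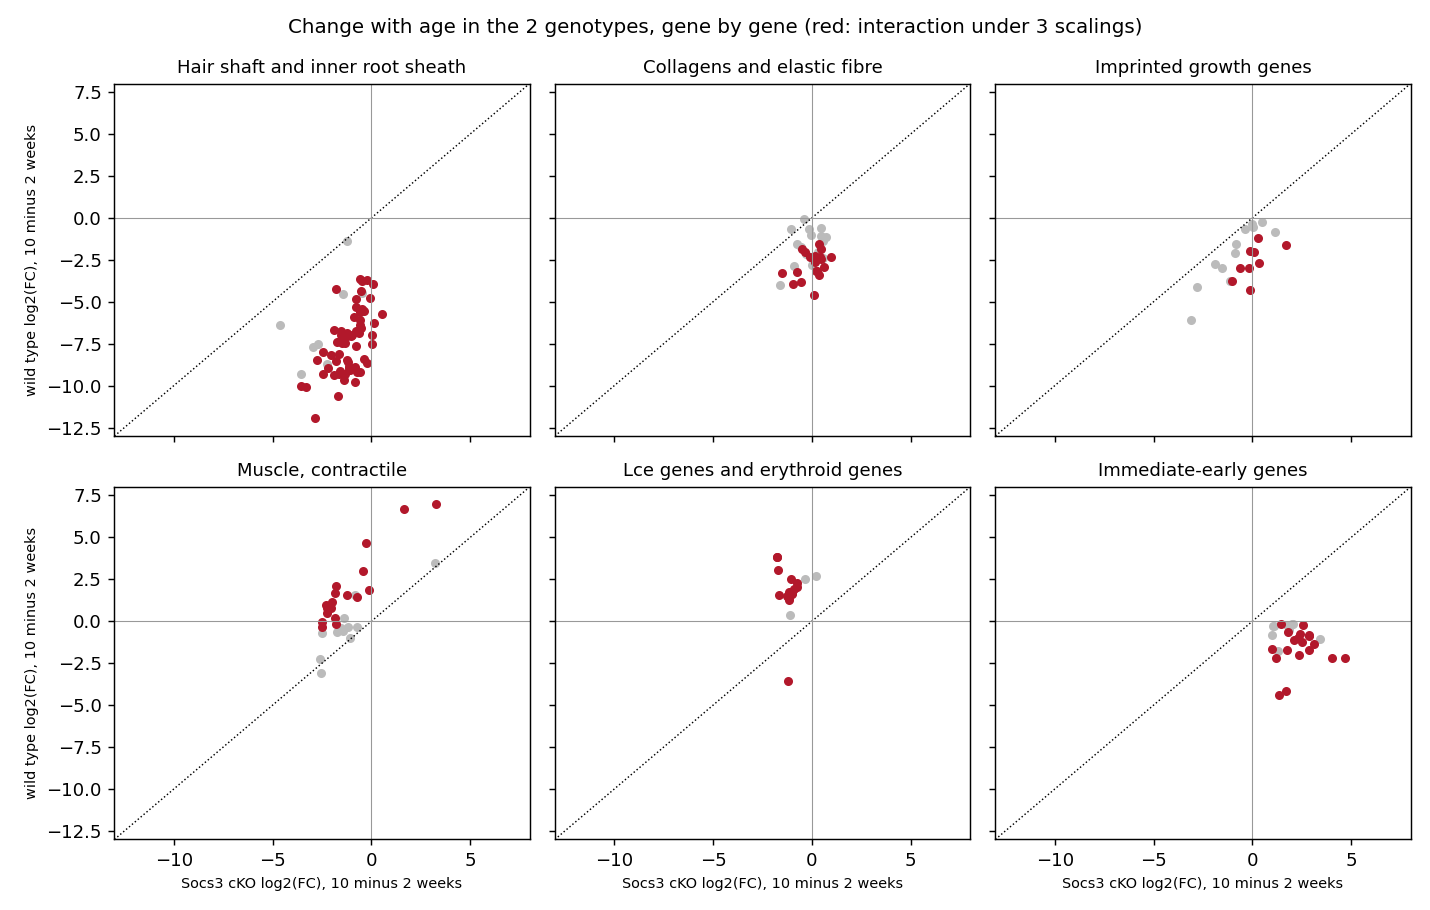
log2(FC) from 2 to 10 weeks in Socs3 cKO mice (x axis) and in the wild type (y axis), 1 point per gene, in 6 groups of lists; red points had an interaction of genotype and age under 3 scalings, grey points did not, and the dotted line marks equal change. Hair genes lie far below the line, at -11.95 to -1.38 in the wild type, the contractile muscle genes mostly above it, and the immediate-early genes to the right of 0 and below it.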

How the data were processed

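RNA of mouse ear specimens was read on a HiSeq 1000 as single 50-base reads from TruSeq v2 libraries, which select poly(A) RNA and do not keep strand, so overlapping genes on opposite strands cannot be told apart. The authors deposited 1 table of FPKM per sample, with 21110 genes each. Per the submitters' processing notes the tools were TopHat2 2.1.0 and Cufflinks (version not given in the sources used here), on build mm9. No count table was used here, so no count test was run, and the depth was estimated from the smallest steps of the FPKM values. The study's methods state more wild type animals than the 7 samples here; the others are not analysed here. The labels number the replicates and do not say whether they are separate animals, so p-values measure the spread between these samples.

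Genes with at least 1 FPKM in at least 3 of the 7 samples were tested on log2(FPKM + 0.1), a scale that understates the change of low genes, with limma 3.58.1 in R 4.3.3 (prior variance with a trend, 2-sided, Benjamini-Hochberg over all 13447 genes). DEGs had an adjusted p below 0.01 and an absolute log2(FC) of at least 1. The interaction of genotype and age was fitted on all 4 groups for the same genes. No p is given for a list; its counts are to be read against the shares of all genes called. An exact permutation test of 3 against 4 samples cannot go below p = 0.0571 and was not used. The fit was tested on simulated data. Lengths, GC content and positions came from the mm9 annotation, matched by symbol for 20533 of 21110 genes (97.27%), and promoters from RefSeq (GRCm38.p6). Shared sequence is the share of the 32-base words of a gene's longest coding transcript that also occur in transcripts of other genes. It was 66.3% for *Rpl13a*, 62.5% for *Ifit3*, 57.5% for *Mia1*, and 54.1% and 52.0% for *Krt6a* and *Krt6b*. It was 98.2% for *Sprr2a2*, 53.4% for *Hbb-b1* and 33.0% for *Lyz1*. Single values of these genes are therefore less certain.

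The comparison, the gene lists and the thresholds were chosen with earlier results of these data known. Genes were named by a rule: the 12 largest rises and the 12 largest falls among scaling-stable DEGs whose groups did not overlap and with a mean of at least 5 FPKM in the higher group, without small RNA genes and with at most 4 of a family; of each list the first 3 tested members and the 3 DEGs with the largest change; *Socs3*; and members called against their list where there were 5 or fewer. Other members were named after their values were seen: the uncalled members *Acan*, *Cd34*, *Cdkn1c*, *Cldn5*, *Col8a1*, *Edar*, *Efemp1*, *Efemp2*, *Egfl7*, *Emcn*, *Esam*, *Gata3*, *Impact*, *Krt10*, *Krt14*, *Krt15*, *Lce3f*, *Lce6a*, *Mfap5*, *Mlana*, *Ndn*, *Nnat*, *Sgce* and *Wnt10a*, and the called members *Col11a1*, *Gli1*, *Hlf*, *Krt33b*, *Krt81*, *Lef1*, *Myh1*, *Myh2*, *Myl3*, *Nr1d1*, *Nr1d2*, *Per3*, *Ptch1*, *Shh*, *Tnnc2*, *Tnni1* and *Tnni2*. Some genes that the rule names are not reported here.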

Additional observations from a re-analysis of the deposited data

Results flagged for a closer look

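In the 2-week wild type, a sample lay apart from the other 3 by Dixon's test on log2(FPKM + 0.1) for 12 of the 257 genes named, where chance gives about 1 in 20. Replicate 1 was apart for *Xist* (0.0204 FPKM, against at least 26.4 in the others), *Hspa8* (473 FPKM), *Rpl38* (1318), *Socs3* (9.71) and *Myl2* (0.161, the others being listed at 0). Replicate 3 was apart for *Abca12* (4.76). Replicate 4 was apart for *Defb14* (listed at 0), *Flt4* (4.29), *Gli1* (13.3), *Hba-a1* (193), *Lce1l* (68.3) and *Speer8-ps1* (2.66e-08, the others being listed at 0). For *Socs3*, *Hspa8*, *Rpl38* and *Hba-a1* the distance was small beside the difference between the ages. For *Myl2* and *Speer8-ps1* the other 3 values were equal, so any value above 0 had to count as apart.

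The change with age differed between the wild type and Socs3 cKO mice, by the interaction term under 3 scalings, in 18.9% of all genes tested. In lists with at least 5 tested members the share was at least 2 times this in 13 of 14 shaft keratins, 39 of 46 keratin-associated proteins, 9 of 9 inner root sheath genes, 14 of 24 hair matrix genes, 7 of 17 bulge and hair cycle genes, 9 of 21 imprinted growth genes, 5 of 6 fibrillar collagens, 9 of 17 other collagens, 9 of 22 collagen processing genes, 7 of 16 elastic fibre genes, 18 of 30 contractile muscle genes, 13 of 16 *Lce* genes, 5 of 5 erythroid genes, 19 of 28 immediate-early genes, 46 of 83 ribosomal protein genes and 53 of 80 oxidative phosphorylation genes. The trend with gene length described above ran in opposite directions in the genotypes, and its part in these interactions was not tested.

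Among the largest rises, the log2 change in the wild type minus that in Socs3 cKO mice was 6.97 for *4930470H14Rik*, 3.74 for *Myl2*, 5.03 for *Mb*, 5.93 for *Aqp2*, 5.50 for *Speer8-ps1*, 4.68 for *F830016B08Rik*, 1.89 for *Myoc*, 4.76 for *Defb14*, 4.93 for *Tcap* and 3.65 for *Krt24*. Among the largest falls it was -9.09 for *Krtap8-1*, -8.89 for *Krt71*, -6.78 for *Krtap7-1*, -6.43 for *Krtap16-8*, -8.92 for *Krtap16-4*, -8.32 for *Krt27*, -7.65 for *Krt34*, -8.64 for *Krt73*, -8.49 for *5430421N21Rik*, -8.05 for *Tchh* and -6.50 for *Crnn*, and it was -4.60 for *Socs3*. For *Speer8-ps1*, listed at or near 0 in the wild type at 2 weeks, the value depends on the pseudocount.

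Outside the comparison, olfactory and vomeronasal receptor genes were listed above 0 in 53.62%, 35.0% and 74.23% of cases in the 3 wild type samples at 10 weeks, above the 2-week wild type.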

How the results depend on the processing

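The count of DEGs was 4439 as deposited. Those higher at 10 weeks numbered 1610 after median-of-ratios scaling, 1583 after quantile normalization, 584 with equal sums of FPKM, 408 with the length and GC trend removed and 1613 without a filter on low values, and those lower numbered 2174 after median-of-ratios scaling and 1760 after quantile normalization. The share of DEGs that were higher, 20.5% as deposited, was 42.5%, 47.4% and 30.7% after median-of-ratios scaling, after quantile normalization and without a filter, and 11.1% and 11.9% with equal sums and with the length and GC trend removed. Of the *Lce* genes 0 were called higher with the length and GC trend removed, and of the ribosomal protein genes 20 were under that setting and 11 after quantile normalization. Leaving out 1 sample at a time gave 3750 to 5112 DEGs, 648 to 917 of them higher and 3013 to 4195 lower, 5 to 14 *Lce* genes and 7 to 13 contractile muscle genes higher, and the same counts as with all samples for the shaft keratins, the keratin-associated proteins, the inner root sheath and the fibrillar collagens; the cause was not tested. Of the 191 DEGs named, 135 were called under every alternative and 188 kept their direction; the exceptions were *Defb6* (-1.09), *Krtdap* (-0.42) and *Timp1* (-0.12) with the length and GC trend removed, where 9 genes not called as deposited were called lower: *Fabp4* (-1.27) and *Mcpt4* (-1.02), which turned, and *Acta1*, *Cpa3*, *Efemp1*, *Mlana*, *Ndn*, *Nnat* and *Sprr2a2*. *4930470H14Rik*, *H19*, *Rian*, *Rpph1* and *Speer8-ps1* have no value under that setting. In 1 fit over all 4 groups the calls of *Aif1*, *Cfd*, *Col9a1*, *Col9a2*, *Csf3r*, *Defb6*, *Flt4*, *Fmod*, *Hspa1a*, *Krt16*, *Lss*, *Nipal4*, *Nog*, *Notum*, *Nr1d1*, *Plk1*, *Socs3*, *Timp1* and *Top2a* were lost, and leaving out 1 sample ended those of *Aif1*, *C1qa*, *Calm4*, *Cidea*, *Csf3r*, *Defb14*, *Defb6*, *Dmkn*, *Hspa1a*, *Hspa8*, *Igf1r*, *Krt16*, *Lce1b*, *Lce3c*, *Lss*, *Ms4a2*, *Mvd*, *Myh1*, *Nipal4*, *Nog*, *Per3*, *Prg4*, *Ptch1*, *Rpph1*, *Timp1* and *Top2a*. Samples with the same replicate number did not deviate together across the ages (correlations 0.057, 0.004 and 0.031); with that number as a replicate block 913 genes were higher and 3560 lower. Precision is limited by 3 and 4 samples, by the spread of the 10-week group and by the unknown counts behind each FPKM.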
